A study of Mus musculus with 8 samples.

Results

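The 8 genes described here are members of the Sox family of transcription factors in single endocardium cells of the mouse heart, namely *Sox17*, which was deleted in the mutant embryos, its SoxF relatives *Sox7* and *Sox18*, the SoxC genes *Sox4* and *Sox11*, the SoxE gene *Sox9* and the SoxD genes *Sox6* and *Sox13*. The members were taken by name as every probe whose gene name in the deposited files is that of a listed gene, which gave 11 probes of 55681 on the array, for 8 of 35715 gene names. Each of the 11 probes could be read on every array. The series compared 4 WT cells (*Mesp1*+/+, *Sox17* flox/flox, thus without Cre but with both floxed alleles) with 4 *Sox17* KO cells (*Mesp1* Cre/+, *Sox17* flox/flox), each on its own 1-colour Agilent array. All cells came from embryos at E8.5 with 9 somites. The labels give the heart tube as their source and the methods the ventricle, and each cell was assigned to the endocardium by PCR of marker genes on its cDNA, where the genes used are not given in the sources used here. Cre was expressed from the *Mesp1* locus, which is active in early mesoderm, so that deletion was directed to all cardiac lineages and not to the endocardium alone. Since no source names the embryo from which a cell was taken, the cells of a genotype counted as 1 sample and no test was made.

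Sox proteins bind DNA through an HMG box and are grouped by the similarity of that box. The SoxF proteins SOX7, SOX17 and SOX18 are regulators of endothelial and endocardial cells, bind closely similar DNA sequences and are known to replace each other in part during the formation of blood vessels. SOX17 is also a regulator of the definitive endoderm and of arterial endothelium. The comparison of WT and KO cells therefore raises the question of which cells contained mRNA of another SoxF gene where *Sox17* had been targeted.

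Every value below is the signal of a probe of 60 bases, and several members were represented by probes that gave different answers. Part of each such probe is printed, with those of the SoxF genes, because the results turn on which stretch of the mRNA was read. The first 30 bases are given 5′ to 3′ as in the deposited files, and probe 1 is the probe of a gene with the higher mean signal.
Sox17 probe 1: cccacttcccacaaaatttgcctttaattc
Sox17 probe 2: ctcactgacttattccatttcttgaaagtg
Sox7: agtcccggatggatattaataatctcgtga
Sox18: cttcctttcgcatatgtatgttagggtatg
Sox4 probe 1: ttttctgcaatgaagacagaaagaaggctc
Sox4 probe 2: tcaagcacatggctgactaccctgactaca
Sox11 probe 1: gcaggagtttttcacagaggaatacatttg
Sox11 probe 2: aaccattctgtattgaaactcttgctataa
The whole probes of different member genes shared no run of bases longer than 9 on either strand. The GC content was 35% for both *Sox17* probes and both *Sox11* probes, 40% for *Sox7*, 45% for *Sox18*, and 45% and 55% for *Sox4* probes 1 and 2. In the annotation of the files (mm9), the *Sox17* probes lie on the minus strand at chr1:4481038-4481097 and chr1:4481503-4481562, the *Sox7* probe on the plus strand at chr14:64569419-64569478 and the *Sox18* probe on the minus strand at chr2:181404789-181404848. Where these stretches fall within the exons was not analysed here.

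Between 11370 and 18175 probes passed the scanner software's call of well above background in a WT cell, and between 12781 and 16853 in a KO cell. Values of single cells are given in the order of cells 1 to 4 of each genotype. The signals are in arbitrary units, scaled so that all arrays shared the same median over the 7570 probes that were well above background on every array. Differences between genotypes are the mean log2 signal of KO cells minus that of WT cells after values under 50 had been set to 50, and the SD is that between cells, pooled over both genotypes. Of 8 markers of endothelial or endocardial cells, the WT cells had 6, 6, 7 and 8 with this call, and the KO cells 5, 7, 7 and 6. Of 9 cardiomyocyte markers, the WT cells had 3, 8, 6 and 5, and the KO cells 5, 4, 5 and 8. The summed signal of the cardiomyocyte markers was 318, 38420, 3211 and 8592 in the WT cells, and 48760, 1036, 10480 and 31590 in the KO cells. That of the endothelial or endocardial markers was 16590, 9075, 33740 and 19740 in the WT cells, and 6791, 71960, 31970 and 10700 in the KO cells. KO cell 1, WT cell 2 and KO cell 4 thus had the highest cardiomyocyte sums and the lowest endothelial or endocardial sums. None of 5 endoderm markers passed in any cell, with a summed signal of 6.52 to 21.0 in WT cells and 9.95 to 22.9 in KO cells.

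*Sox17* mRNA was not measured well above background in a single cell, WT or KO, while *Sox18* was in all 8 and *Sox7* in 6. At *Sox17* probe 1 the signal was 3.89, 1.57, 4.38 and 1.09 in the WT cells, and 2.95, 5.06, 6.18 and 2.90 in the KO cells. The genotypes overlapped, the highest value was in KO cell 3, and every value was far under the floor of 50. The software's weaker call, that a signal is positive and significant against the local background, was made for this probe in 5 of 8 cells, 2 WT (cells 2 and 3) and 3 KO (cells 2, 3 and 4). In the same 5 cells the signal lay above the 95th percentile of the negative control spots of its array. At *Sox17* probe 2, whose start lies 465 bases from that of probe 1, the signal was 1.23 to 3.79 in WT cells and 1.53 to 4.18 in KO cells, and neither call was made in any cell. No fold is given, since the probes were not well above background in either genotype. Which part of *Sox17* the Cre removes is not given in the sources used here, so that these probes check neither the deletion nor the labels. The low signals in WT cells leave no level from which a loss could be measured.

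*Sox7*, which is expressed in early vascular and blood-forming mesoderm and in endothelium, was well above background in 6 cells and not in the other 2. Its signal was 4.64, 954, 1843 and 3473 in the WT cells, and 6.14, 6599, 3008 and 3116 in the KO cells. Each genotype thus held 3 cells with a high signal and 1 cell, WT cell 1 and KO cell 1, in which the probe was not well above background. In KO cell 1, but not in WT cell 1, the signal lay above the 95th percentile of the negative controls. Within the arrays, *Sox7* stood at percentiles 91.4 to 95.1 of all probes in the 3 WT cells and at 93.6 to 95.7 in the 3 KO cells where it was called. The mean log2 signal was 9.54 in WT and 10.37 in KO cells, a difference of 0.84, far below the SD between cells of 2.96. The direction of this difference rested on WT cell 1, without which it was -0.46, and its size also on KO cell 1, without which it was 2.41, and on KO cell 2, without which it was 0.063.

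*Sox18*, known for its mutation in the ragged mouse and for its part in vascular and lymphatic development, was well above background in every cell. Its signal was 348, 8.29, 98.5 and 138 in the WT cells, and 248, 842, 55.4 and 89.9 in the KO cells. The genotypes overlapped throughout, with the highest cell KO 2 and the lowest cell WT 2, which was the only cell under the floor of 50. *Sox18* lay between percentiles 72.5 and 92.2 of its array, and its mean log2 signal was 6.95 in WT and 7.49 in KO cells. The difference of 0.53 was smaller than the SD of 1.48 and became -0.21 without KO cell 2.

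Set side by side in each cell, either *Sox7* or *Sox18* was well above background in all 4 WT and all 4 KO cells, and both were in 3 cells of each genotype. As *Sox18* was called in every cell, the count for either gene follows from *Sox18* alone. The count for both equals that for *Sox7*. The *Sox18* call was made at a signal of only 8.29 in WT cell 2, and 13.7% of all probes were called in all 8 cells. With a signal of at least 50 as the call, either was present in all 8 cells and both in 5, of which 2 were WT and 3 were KO. After scaling, the cells in which *Sox7* was not called, WT 1 and KO 1, had the second and the third highest *Sox18* signals. KO cell 2 had the highest scaled signals of both genes. Before scaling, the *Sox18* signal of WT cell 4 (230), where *Sox7* was called, lay above those of WT 1 (148) and KO 1 (130). Over all 8 cells the log2 signals of *Sox7* and *Sox18* had a Pearson's r of -0.21 and a Spearman's rho of 0.071, given as a description of 8 cells. Signals of different probes cannot be set against each other as amounts of mRNA, so that the share of SoxF mRNA contributed by each gene was not computed. Of the 3 cells with the highest cardiomyocyte sums, KO 1 had no *Sox7* call, WT 2 had the lowest *Sox18* signal and KO 4 had both genes called, and the part of those markers in the SoxF values was not tested. The data hold no measure of SOX7 or SOX18 protein or of their binding, and whether either gene stands in for *Sox17* was not tested.

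**Figure D1:**
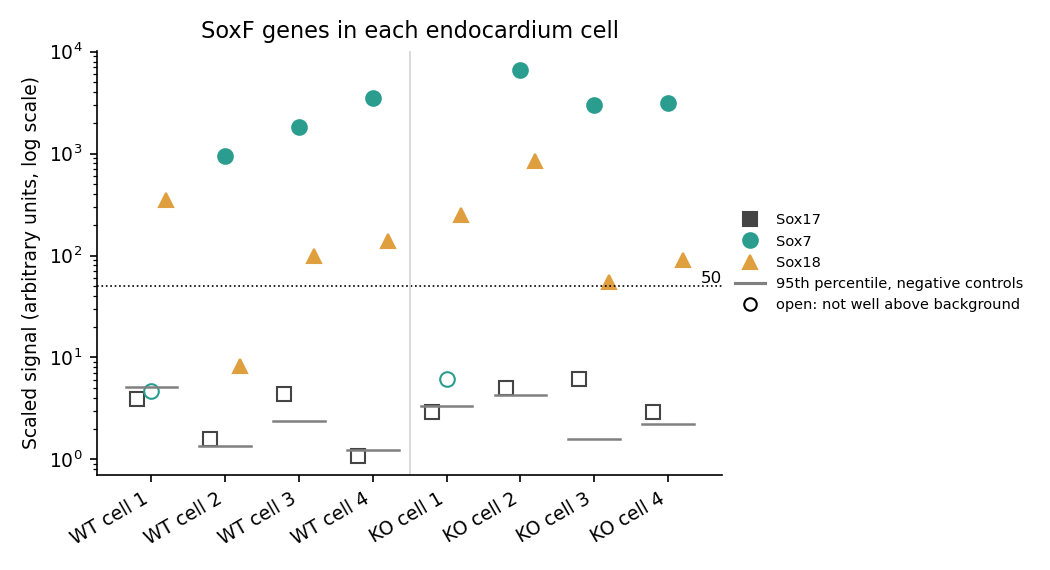
Scaled signal (log axis, arbitrary units) of *Sox17* probe 1, *Sox7* and *Sox18* in each of the 4 WT and 4 KO cells, with filled symbols for probes well above background, open symbols for those that were not, a grey line at the 95th percentile of the negative controls of each array and a dotted line at 50. *Sox17* lies below the dotted line in every cell, *Sox7* is high in 3 cells of each genotype and has an open symbol in WT 1 and KO 1, and *Sox18* is filled in all 8.

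The *Sox18* signal moved with the scaling of the arrays. The scaling factor, by which the signals of an array were multiplied, was 2.36, 0.645, 1.32 and 0.602 for the WT cells, and 1.91, 1.84, 0.617 and 1.09 for the KO cells, and was largest for WT cell 1, the cell with the fewest probes well above background. Over the 8 cells, the log2 signal of *Sox18* had an r of 0.78 (rho 0.67) with the log2 scaling factor, against 0.38 before scaling. For 12244 probes well above background in at least 4 cells the median r was 0.14, and 8.91% of them had an r at or above that of *Sox18*. The r was -0.57 for *Sox7*, 0.43 for *Sox13*, -0.46 for *Sox4* and 0.0040 for *Sox11*, so that the members had no common direction. The cells WT 1, KO 1 and KO 2, with the largest factors, were those with the highest scaled *Sox18* signal. Before scaling, the *Sox18* signal ran from 12.9 in WT cell 2 to 458 in KO cell 2. WT cell 4 (230) then lay above WT cell 1 (148) and KO cell 1 (130), so that the order of the cells changed with the scaling. Which order is closer to that of the mRNA was not tested.

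**Figure D2:**
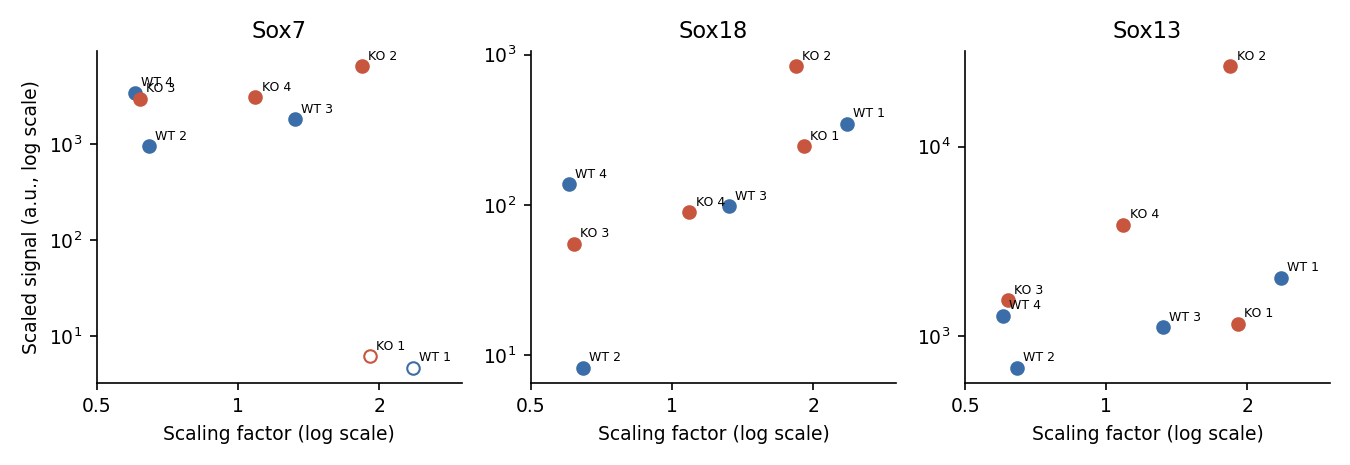
Scaled signal (log axis, arbitrary units) of *Sox7*, *Sox18* and *Sox13* against the scaling factor of each array (log axis), for 4 WT cells (blue) and 4 KO cells (red), with open points for probes not well above background. *Sox18* is highest in the 3 cells with the largest factors (r = 0.78), whereas *Sox7* has open points in WT 1 and KO 1, the 2 cells with the largest factors.

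The SoxC genes *Sox4* and *Sox11*, which act in progenitor cells and are both needed for the outflow tract of the heart, were each detected in cells of both genotypes, with 3 cells in common. *Sox4* probe 1 (chr13:29042856-29042915, minus strand) gave 3.77, 85.4, 2.26 and 4.62 in the WT cells, and 27.9, 39.2, 2371 and 989 in the KO cells. The call was made in 1 of 4 WT cells and in all 4 KO cells, but only WT cell 2, KO cell 3 and KO cell 4 exceeded 50, and the genotypes overlapped. The mean log2 signal was 5.84 in WT and 8.11 in KO cells, a difference of 2.28 (SD 2.07) or 4.84-fold on the floored scale, just under the 5-fold limit used below. The size of this difference rested on KO cell 3, without which it was 1.24. The mean without the floor gave 4.89, because the 3 WT cells under the floor, which were not called, then lay further below the KO cells.

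*Sox4* probe 2 (chr13:29044482-29044541), which starts 1626 bases from probe 1, was not well above background in any cell, with signals of at most 3.52 in WT and 4.21 in KO cells. In KO cells 3 and 4, where probe 1 was brightest, probe 2 was not called. On the minus strand, probe 2 lies further toward the 5′ end of the gene than probe 1. The amplification used for these cells starts at the poly(A) tail, and its part in the gap between the probes was not tested. Only probe 1 gave a *Sox4* value in any cell.

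*Sox11* was called in WT cells 2, 3 and 4 and in KO cells 1 and 2, and its probes disagreed on which genotype was higher. Probe 1 (chr12:28020087-28020146, minus strand) gave 3.75, 162, 4214 and 3032 in the WT cells, and 728, 726, 1.52 and 2.11 in the KO cells. Probe 2 (chr12:28019541-28019600), with a start 546 bases away, gave 3.67, 848, 5.61 and 144 in the WT cells, and 4869, 2920, 1.42 and 2.14 in the KO cells. Among the called cells, probe 1 was at its highest in WT cell 3, where probe 2 was not well above background, and probe 2 was at its highest in KO cell 1. The KO minus WT difference was -1.57 (SD 2.73) by probe 1 and 1.72 (SD 2.90) by probe 2, each smaller than its SD, and 0.072 by the mean of both probes. On neither probe was any signal well above background in WT cell 1, KO cell 3 or KO cell 4.

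The log2 signals of the *Sox11* probes had an r of 0.28 over the 8 cells. Among the 1556 genes with a pair of probes each well above background in at least 4 cells, the median r between probes was 0.79, and 25.1% of pairs had an r no higher than that of *Sox11*. The probes had opposite signs of the KO minus WT difference in 26.4% of these genes, and opposite signs with both differences of at least 2-fold, as for *Sox11*, in 1.86% (29 genes). In 12.6% of gene and cell combinations, only 1 of the probes was well above background.

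**Figure D3:**
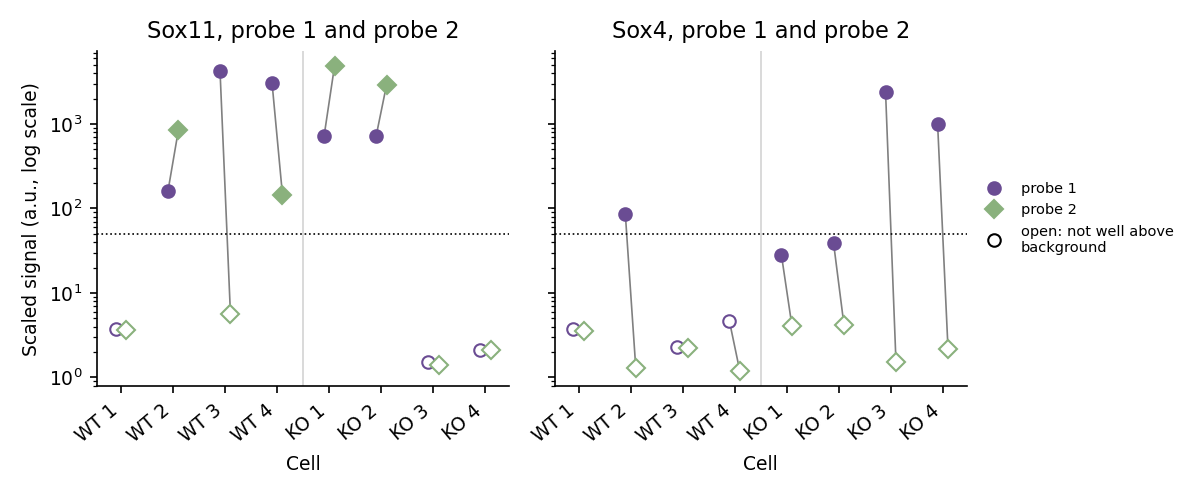
Scaled signal (log axis, arbitrary units) of probe 1 and probe 2 of *Sox11* and *Sox4* in each cell, joined by a line, with open symbols where a probe was not well above background and a dotted line at the floor of 50. *Sox11* probe 1 is highest in WT cells 3 and 4 and probe 2 in KO cells 1 and 2, whereas *Sox4* probe 2 has open symbols in all 8 cells.

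At the level of the cell, *Sox4* and *Sox11* were called together in WT cell 2, KO cell 1 and KO cell 2. *Sox11* alone was called in WT cells 3 and 4, and *Sox4* alone in KO cells 3 and 4. WT cell 1 had neither gene. The number of members called was 2, 5, 4 and 4 in the WT cells, and 4, 5, 4 and 4 in the KO cells, lowest in the WT cell that also had the fewest detected probes in all.

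*Sox13*, a SoxD gene known from T cells of the gamma delta lineage, was the only member besides *Sox18* that was well above background in all 8 cells. Its probe (chr1:135279099-135279158, minus strand) gave 2033, 679, 1110 and 1281 in the WT cells, and 1160, 26680, 1550 and 3874 in the KO cells. Cells of both genotypes overlapped between 1160 and 2033, and KO cell 2 stood far above the rest. The mean log2 signal was 10.21 in WT and 11.85 in KO cells, a difference of 1.64 with an SD of 1.52, or 3.12-fold. Without KO cell 2, which also had the highest *Sox7* and *Sox18* signals, the difference was 0.69. *Sox13* lay between percentiles 90.3 and 97.8 of its array.

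The SoxE gene *Sox9*, a regulator of cushion mesenchyme and cartilage, and the SoxD gene *Sox6*, its partner in cartilage, were not well above background in any cell. The *Sox9* probe (chr11:112648809-112648868, plus strand) is spotted 10 times on each array and gave mean signals of 1.25 to 3.92 in WT and 1.44 to 3.93 in KO cells. The *Sox6* probe (chr7:122615418-122615477, minus strand) gave 1.19 to 3.86 in WT and 1.52 to 4.17 in KO cells. These ranges are those of background, and with *Sox17* they make 3 member genes of 8 with no call in any cell. Over the whole array, 51.5% of 55295 probes were called in no cell and 13.7% in all 8. Of the 11 member probes, 5 were called in no cell and 2, those of *Sox18* and *Sox13*, in all 8.

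None of the 6 member probes called in at least 1 cell differed by 5-fold or more between the genotype means, against 5.68% of 26833 probes called in at least 1 cell. None had WT and KO cells that did not overlap, against 1.34% of the same probes. With 6 probes, counts of 0 lie close to both backgrounds and say nothing particular about the members. The median KO minus WT difference was 1.24 over the 6 member probes and 0.00 over all probes, and the median size of the difference was 1.61 and 0.28. The median SD between cells was 2.40 for the member probes and 0.64 for all probes, many of which lay at the floor in most cells, so that a larger difference stood beside a larger spread.

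**Figure D4:**
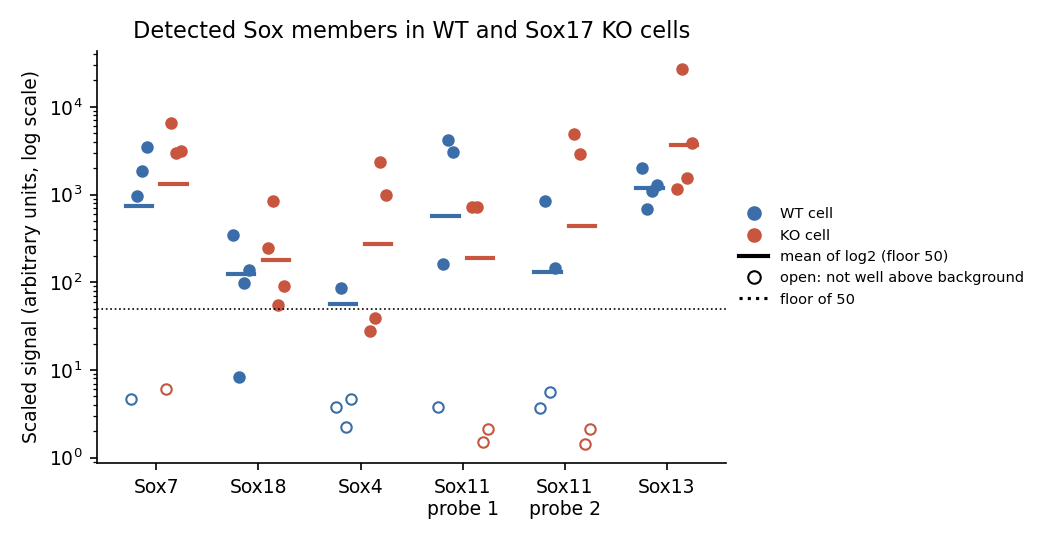
Scaled signal (log axis, arbitrary units) of the 6 member probes detected in at least 1 cell, with a point per cell (blue WT, red KO), open points where a probe was not well above background, bars at the mean of log2 values after the floor of 50, and a dotted line at that floor. WT and KO cells overlap for every probe, and the bars of the *Sox11* probes stand in opposite order.

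Of the other 12 Sox genes on the array (15 probes), 6 were well above background in at least 1 cell and 6 in none, with 4 of their probes called in all 8 cells. Those 4 probes were *Sox1* probe 1 (58.4 to 145), *Sox10* (18.4 to 32.9), *Sox21* probe 1 (28.7 to 167) and *Sox5* probe 1 (1672 to 8980), of which *Sox10* is a neural crest gene and *Sox1* a neural gene. Without a floor, their r with the scaling factor over the 8 cells was 0.74, 0.85, 0.78 and 0.83, whereas the 0.78 of *Sox18* is from floored values. Their rho, taken without a floor for all genes, was 0.667, 0.786, 0.595 and 0.786, beside 0.667 for *Sox18*. The second probes of *Sox1* and *Sox5* were each called in 1 cell, KO 4 (20.4) and KO 1 (579), and that of *Sox21* in none. *Sox5* probe 1 is annotated at chr9:94466753-94466812 and the other *Sox5* probe at chr6:143781520-143781579, so that probe 1 is uncertain as a measure of *Sox5*. *Sox12*, a SoxC gene, was called in KO cell 1 alone (37.6), and *Sox14* in WT cell 3 (11.5), KO cell 2 (21.9) and KO cell 3 (9.20). None of the 8 probes called in at least 1 cell differed by 5-fold between genotypes, against 5.68% of all such probes. Those of *Sox10*, *Sox12* and *Sox14* and *Sox1* probe 2 lay under the floor of 50 in every cell, so that they could not differ. With so few probes the count says nothing particular about these genes. For *Sox1*, *Sox5* and *Sox21* the call in all 8 cells was therefore made by only 1 of the probes of the gene. *Sox18* and *Sox13* have a single probe each, so that no such comparison can be made for them.

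**Figure D5:**
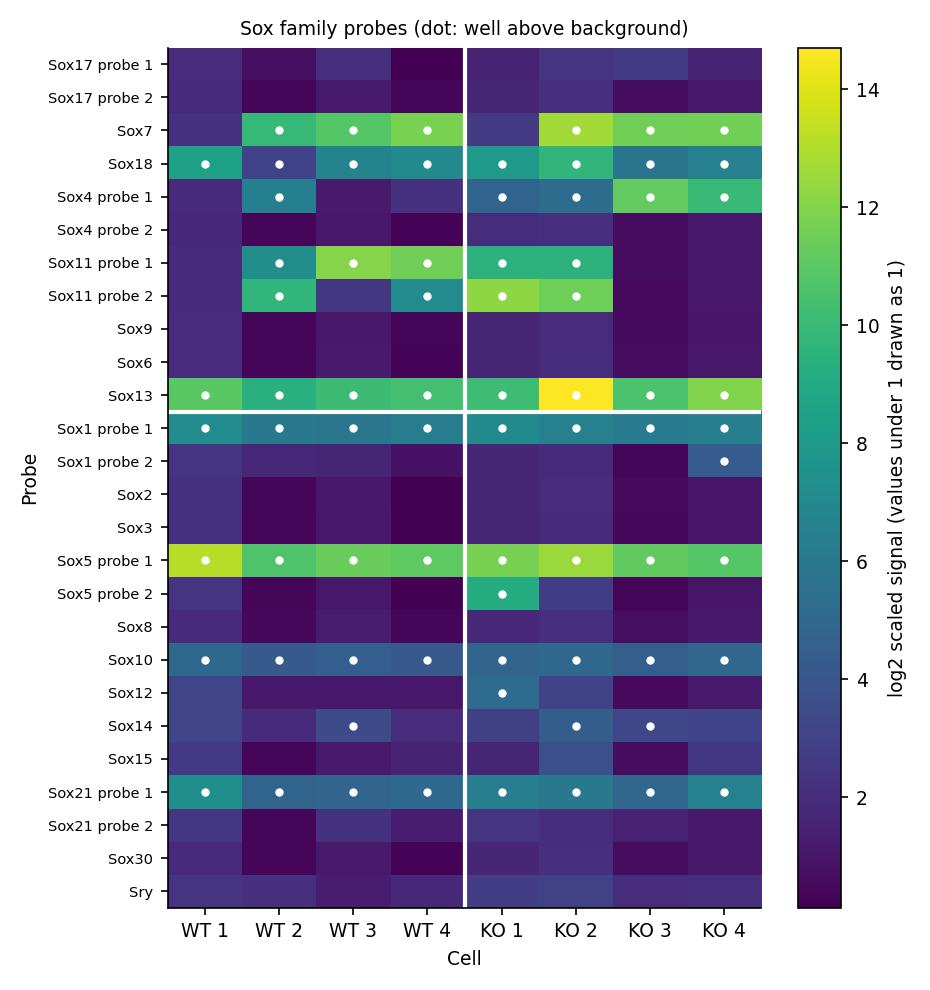
log2 scaled signal (colour, values under 1 drawn as 1) of the 11 member probes (above the white line) and of 15 probes of the other 12 Sox genes (below it) in each of the 4 WT and 4 KO cells, with a dot where a probe was well above background. The SoxF rows show *Sox17* without a dot, *Sox7* with 6 and *Sox18* with 8, and the second probes of *Sox4*, *Sox1*, *Sox5* and *Sox21* are dark in most or all cells where their first probes are brighter.

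Of 18 known targets and partners of SoxF proteins in endothelium, 15 were well above background in at least 1 cell and 5 in all 8, and 3 (*Vcam1*, *Prox1* and *Mef2c*) in none. The median KO minus WT difference of the 15 was 0.00, as over all probes. Of the 15, *Nr2f2*, *Erg* and *Rbpj* lay under the floor in every cell, so that their differences of 0.00 were set by the floor. The VEGF receptor gene *Kdr* differed by 0.16 (SD 2.47), the endothelial cadherin gene *Cdh5* by -0.96 (SD 1.48), the ETS factor gene *Fli1* by 1.23 (SD 1.06) and *Ctnnb1*, which encodes the Wnt effector beta-catenin, by 0.19 (SD 0.36). With 1 cell left out, *Kdr* lay between -0.91 and 1.61, *Cdh5* between -1.62 and -0.093, *Fli1* between 0.69 and 1.62 and *Ctnnb1* between -0.0070 and 0.31. *Notch1*, a SoxF target and the receptor of the endocardial NOTCH pathway, lay between 10.4 and 34.0 in 7 cells and at 15130 in KO cell 1. Its difference of 2.06 was 0.00 without that cell. The other *Notch1* probe was called in only 1 cell and also gave a difference of 0.00.

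*Etv2*, the ETS factor that sets up the endothelial lineage, was the 1 gene of the 15 at least 5-fold apart, a share near the 5.68% of all probes. Its signal was 46250, 18.6, 12280 and 5741 in the WT cells, and 159, 81.3, 2.35 and 5616 in the KO cells. The mean was 14.6-fold higher in WT cells, a KO minus WT difference of -3.86 (SD 3.74). The genotypes overlapped because WT cell 2 was low, whereas the highest KO cell, KO cell 4, lay just under WT cell 4. With 1 cell left out the difference lay between -2.63 (without WT cell 1) and -5.92 (without WT cell 2). WT cell 1, which had no *Sox7* call, had the highest *Etv2* signal, and KO cell 2, with the highest *Sox7* and *Sox18* signals, had 81.3. Other cells went the other way, since KO cell 1, also without a *Sox7* call, had 159. *Sox7* was called in WT cells 3 and 4 and KO cell 4, where *Etv2* was high. It was also called in WT cell 2 and KO cell 3, where *Etv2* was low. The relation between these genes was not tested.

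All 6 known targets of SoxC, SoxD and SoxE proteins were called in at least 1 cell and 3 in all 8. None was 5-fold apart, against 5.68% of all probes called in at least 1 cell. *Tubb3* and *Col9a1* lay under the floor in every cell, so that they could not differ. With so few genes the count says nothing particular about this list. The SoxC targets *Tead2*, a Hippo pathway factor, and *Stmn1*, which encodes a microtubule-destabilizing protein, differed by 1.77 (SD 3.31) and 1.26 (SD 3.41), and the cartilage gene *Acan* by -0.071 (SD 0.10). For *Acan* only WT cell 1 (60.9) exceeded the floor, so that its small difference and SD were set by the floor. Without WT cell 1 the differences of *Tead2* and *Stmn1* turned to -0.27 and -0.81. WT cell 1, the cell with neither *Sox4* nor *Sox11*, had the lowest *Tead2* signal (54.3, the next 3289) and the lowest *Stmn1* signal (39.3, the next 1075). This pairing was chosen after the values were seen. The same cell had the fewest probes well above background, and the part of that in both values was not tested.

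The genes whose pattern over the 8 cells was most like that of a member were sought among 6581 genes well above background in at least 4 cells. For *Sox7* these were *Tax1bp3* (r 0.98), *Rasgrp2* (0.98), a Rap activator, and *Gars* (0.97), a tRNA synthetase gene, all of which were at their lowest in WT cell 1 and KO cell 1. For *Sox18* they were the potassium channel gene *Kcnd1* (0.98), *Iqcc* (0.98) and 2900076A07Rik (0.96). Their own r with the scaling factor, without a floor, was 0.70, 0.81 and 0.87. For *Sox4* they were *Ankrd13d* (0.99), the histone methyltransferase gene *Setdb1* (0.99) and the probe named *Airn* (0.99). These were highest in KO cells 3 and 4 and near or below the floor elsewhere. In KO cells 3 and 4, *Ankrd13d* reached only 63.2 and 61.3, just above the floor. *Setdb1* reached 1965 and 562 there, and *Airn* 9476 and 5362. For *Sox11* probe 1 they were *Ciao1* (0.95), *Ccm2l* (0.92) and *Nudt16l1* (0.92). An r of at least 0.9 was reached by 36 genes for *Sox7*, 34 for *Sox18*, 35 for *Sox4* and 4 for *Sox11*. With 8 cells and values held at the floor, such ranks describe the shared high and low cells and nothing more.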

How the data were processed

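The arrays (design 028005, probes annotated on mm9) had been read by the authors with Agilent Feature Extraction, version 12.0.2.2. The deposited intensity values were background-corrected and detrended within an array by that software, without normalization between arrays. cDNA of 1 cell per array had been amplified by PCR, transcribed with T3 polymerase and labeled with Cy3. Control and outlier spots were removed, replicate spots were averaged, and 55295 of 55681 probes remained on all arrays. A probe was called well above background when over 50% of its usable spots carried that flag, and no member value was saturated. Arrays were scaled to the 50th percentile of 7570 probes called on all arrays, then floored at 50 and converted to log2. Where a gene had several probes, that of highest mean stands for it. All arrays were on 1 slide, with the genotypes in separate columns, and the effect of the column cannot be told apart from that of genotype. The number of arrays limits the precision.

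Members and lists were chosen with earlier results of these data known. Genes named are all members, the other Sox genes called in at least 1 cell, listed targets at least 5-fold apart or called in all 8 cells, and for *Sox7*, *Sox18*, *Sox4* and *Sox11* the 3 genes with the highest Pearson's r. Listed targets called in no cell, or under the floor in every cell, are also named. Marker lists for other cell types gave, in each cell, 0 of 3 epicardium, 1 to 2 of 5 cushion mesenchyme, 1 to 2 of 4 neural crest, 2 of 3 smooth muscle and 0 to 1 of 5 blood genes well above background. Alternatives were other percentiles, probes, floors (10, 200, before scaling, none) and detection calls, quantile normalization, no scaling, normexp (offset 50), only probes called on all arrays, and each cell left out. The setting without a floor and the other *Sox11* probe were chosen after seeing the data. The steps were tested on simulated data. Python 3.11.15, numpy 2.4.6, pandas 2.3.3, scipy 1.17.1, matplotlib 3.10.9 and R 4.3.3 with limma 3.58.1 were used.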

Additional observations from a re-analysis of the deposited data

Results flagged for a closer look

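In KO cells, the *Sox7* signal of KO cell 1, at the floor, lay far below the other 3, with a gap to the nearest cell of 0.839 of the whole range, just past Dixon's critical value for 4 values. In WT cells, the *Sox4* probe 1 signal of WT cell 2 lay above the other 3, all at the floor, with a gap of 1.0 of the range, which any single value above the floor would give. These were 2 of 12 groups of 4 cells. The usual chance rate of 1 in 20, or 0.6 groups, holds for values without a floor. With values held at the floor that rate does not apply, so that no excess can be read from the count.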

How the results depend on the processing

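No paired analysis was possible because the results come from no test and the replicate numbers only name cells. Of 90 alternative values of the member differences, 88 lay within 1 SD of the reported value and 4 changed sign. The SD between cells ran from 1.48 (*Sox18*) to 2.96 (*Sox7*), so that even a change of sign could lie within it. Some alternatives could not change the value, such as the floors for *Sox13*. The same holds for the limit to probes called on all arrays for *Sox18* and *Sox13*. The count of 88 is therefore no measure of stability. The sign changed for *Sox7* without WT cell 1 (-0.46), for *Sox18* without KO cell 2 (-0.21), and for *Sox11* with the mean of both probes (0.072) or the other probe (1.72), which was also more than 1 SD away. *Sox4* without a floor (4.89) also moved by more than 1 SD. Over all alternatives the difference ran from -0.46 to 2.41 for *Sox7*, -0.21 to 1.18 for *Sox18*, 1.14 to 4.89 for *Sox4*, -3.04 to 1.72 for *Sox11* and 0.69 to 2.198 for *Sox13*. The number of members at least 5-fold apart, 0 as reported, was 1 (*Sox4*) with the floor set before scaling, with normexp or with a floor of 10, and 2 (*Sox4* and *Sox11*) without a floor. Leaving out 1 cell gave 0 to 2, with *Sox11* past the limit without WT cell 1, *Sox4* without WT cell 2 or KO cell 2, and *Sox7* and *Sox4* without KO cell 1. The share of all probes past 5-fold was computed only for the reported setting (5.68%). These alternative counts thus have no background beside them and say nothing particular about the members. By the weaker call *Sox17* counted as detected in 5 cells in place of 0, and with a signal of at least 50 as the call *Sox4* was detected in 3 cells in place of 5. The causes were not tested. Signal over background limits *Sox17*, *Sox9*, *Sox6* and *Sox4* probe 2, for which no level can be given in any cell.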
